A study of Mus musculus with 2 samples.

Results

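Genes of glycolysis and of the response to low oxygen were examined in bone marrow cells cultured with the herbal drug ninjin'yoeito (NYT) and in an untreated control culture. The 34 genes were taken by symbol from the gene names in the scanner files, with older names allowed (Pkm appears there as Pkm2), out of 30163 genes named on the array. They comprise 22 glycolytic members (glucose and lactate carriers, enzymes and their regulators) and 12 other hypoxia response members. The mononuclear cells, which include progenitors and immune cells, came from the femurs of C57/Bl6J mice aged 2 to 4 months, flushed in medium with 2% fetal bovine serum. RNA was taken from both cultures at day 11, the NYT culture given the drug and the control culture given none. The dose, the number of animals behind each culture and any pooling of cells were not stated. RNA of each culture was hybridised to 1 one-colour whole-genome mouse array, and both arrays lay on 1 slide. With 1 array per group there was no replicate check, no SD between cultures and no test, so every difference below is a difference between 2 arrays.

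Glycolysis splits glucose into pyruvate in the cytosol and yields ATP without oxygen, and lactate dehydrogenase turns pyruvate into lactate to keep it running. When oxygen is low, the prolyl hydroxylases of the Egln family no longer mark the alpha subunits Hif1a and Epas1 for degradation. These pair with Arnt and raise transcription of glucose carriers, glycolytic enzymes and other targets through a core motif. Only its form ACGTG was searched for here. Bone marrow is a tissue of low oxygen, and its stem cells and myeloid cells are known to rely on glycolysis.

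Intensities are given as multiples of each array's 75th percentile, which was 728 on the NYT array and 1476 on the control array. Differences are log2 intensity, NYT minus control. Probes well above background made up 57.7% of the NYT array and 62.2% of the control array. All 34 members had a probe well above background on both arrays, so none had to be given as a bound. The spots of probes printed several times put the median SD of a difference at 0.053, which covers spot noise within an array and leaves out the cultures. Over all 16996 measured genes the median difference was 0.29, with the middle 50% between -0.28 and 0.68. A value near 0.29 is thus that of the middle gene and does not set a member apart from other genes. Whether the middle gene itself changed cannot be told, because its value depends on the scaling. It was -0.89 when the arrays were scaled to spike-in spots. All 12 general blood cell markers were measured on both arrays, with a median difference of 0.00, below that of all genes. They ranged from -1.15 to 0.91, and 7 of the 12 lay below the median of all genes.

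The glucose carrier Slc2a3 was 14.98-fold lower on the NYT array, whereas 4 enzymes of the middle of glycolysis, Aldoc, Pgam1, Pgk1 and Tpi1, were 2.60-fold, 2.58-fold, 2.51-fold and 2.37-fold higher. The regulator Pfkfb4 and the secreted peptide Adm were 2.71-fold and 2.62-fold lower. The remaining 27 members, Hif1a and the lactate dehydrogenases among them, lay within 2-fold. Thus 4 of 34 members were at least 2-fold higher, against 11.2% of all measured genes, and 3 of 34 were at least 2-fold lower, against 11.0% of all measured genes. Both counts over the whole set are near those backgrounds.

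**Figure D1:**
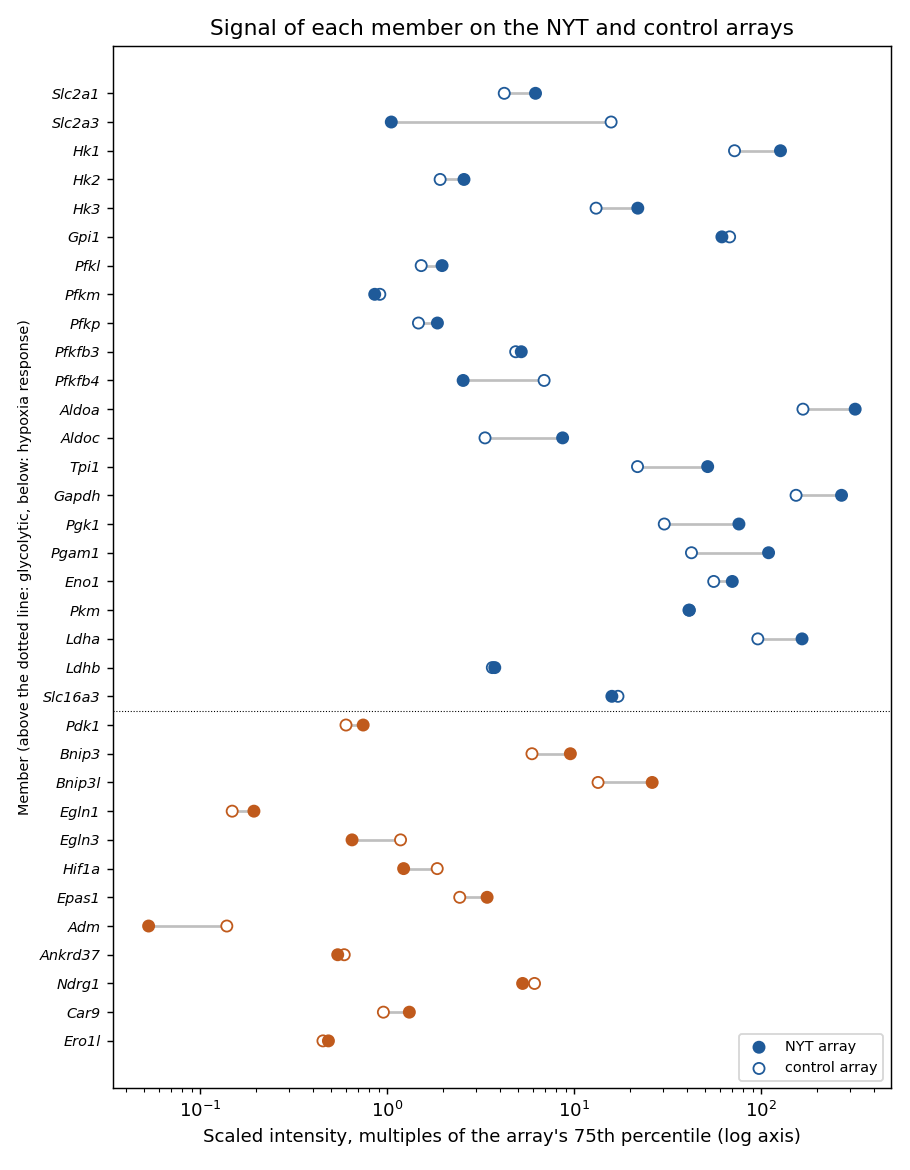
Scaled intensity of the 34 members (horizontal log axis, multiples of each array's 75th percentile), filled circles for the NYT array and open circles for the control array, 1 array each, with glycolytic members in blue and hypoxia response members in orange. Slc2a3 shows the widest gap, at 1.05 on the NYT array and 15.8 on the control array, and Aldoc, Tpi1, Pgk1 and Pgam1 have the NYT array to the right.

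The promoters below are shown because they belong to members at the ends of the range and to Ldha, which holds the most matches to ACGTG. Each is the 250 bases before the RefSeq start (GRCm38.p6), 5′ to 3′ on the strand of the gene, with ACGTG or its reverse complement CACGT in capitals.
Pgk1: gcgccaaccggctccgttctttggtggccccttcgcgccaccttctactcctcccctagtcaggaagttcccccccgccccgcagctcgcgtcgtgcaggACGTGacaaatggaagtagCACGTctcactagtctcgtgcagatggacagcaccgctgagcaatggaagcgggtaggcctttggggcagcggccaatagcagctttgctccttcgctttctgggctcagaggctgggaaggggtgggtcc
Pgam1: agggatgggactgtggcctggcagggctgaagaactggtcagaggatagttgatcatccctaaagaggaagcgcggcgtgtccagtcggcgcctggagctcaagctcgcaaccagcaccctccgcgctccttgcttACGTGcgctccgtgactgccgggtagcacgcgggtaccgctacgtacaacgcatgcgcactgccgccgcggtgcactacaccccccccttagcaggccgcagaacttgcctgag
Tpi1: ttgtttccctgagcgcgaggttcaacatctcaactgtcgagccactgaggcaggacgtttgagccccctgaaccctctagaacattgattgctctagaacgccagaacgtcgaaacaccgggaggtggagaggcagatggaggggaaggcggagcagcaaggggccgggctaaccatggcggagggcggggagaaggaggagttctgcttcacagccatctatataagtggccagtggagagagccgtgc
Ldha: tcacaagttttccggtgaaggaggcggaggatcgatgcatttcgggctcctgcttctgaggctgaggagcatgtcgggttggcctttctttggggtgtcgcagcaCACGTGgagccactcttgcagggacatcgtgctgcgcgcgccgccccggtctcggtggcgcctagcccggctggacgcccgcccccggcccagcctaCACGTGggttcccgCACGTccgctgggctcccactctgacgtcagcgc
Pfkfb4: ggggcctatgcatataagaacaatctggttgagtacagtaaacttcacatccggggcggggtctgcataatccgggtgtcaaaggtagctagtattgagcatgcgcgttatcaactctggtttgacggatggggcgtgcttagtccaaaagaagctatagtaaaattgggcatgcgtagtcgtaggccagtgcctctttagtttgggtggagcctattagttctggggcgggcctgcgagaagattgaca
Adm: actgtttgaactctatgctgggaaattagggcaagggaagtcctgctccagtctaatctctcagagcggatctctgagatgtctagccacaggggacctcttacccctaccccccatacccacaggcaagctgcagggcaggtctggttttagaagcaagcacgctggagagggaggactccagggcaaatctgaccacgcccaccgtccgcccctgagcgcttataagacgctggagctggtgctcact

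These windows lie at chrX:106186850-106187099 (plus strand) for Pgk1, chr19:41911621-41911870 (plus) for Pgam1, chr6:124814159-124814408 (minus) for Tpi1, chr7:46845554-46845803 (plus) for Ldha, chr9:108991652-108991901 (plus) for Pfkfb4 and chr7:110627407-110627656 (plus) for Adm. The Pgk1 window holds 2 separate matches, whose first bases lie at -150 and -131 from the start, and that of Pgam1 holds 1, at -114. The Ldha window holds 5 matches counted on both strands, of which 4 form 2 palindromes (CACGTG, read on each strand). The windows of Tpi1, Pfkfb4 and Adm hold none. All these matches and the counts below are of ACGTG only. The form GCGTG was not counted, and the Pfkfb4 window and, on the other strand, the Adm window hold it. RefSeq windows were matched for 30 of the 34 members (43 windows), and 18 of these 30 genes (60%) had at least 1 match, against 18.5% of all 27025 genes in the table. By list, 11 of 21 glycolytic genes (52.4%) and 7 of 9 hypoxia response genes (77.8%) had one. The excess describes the list. A match is a stretch of letters, and the arrays did not measure binding there. Among the 7 members past 2-fold, Pgk1 and Pgam1 had a match, Aldoc (2 windows), Tpi1, Pfkfb4 and Adm had none, and Slc2a3 had no window to search.

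Glucose enters the cell through carriers of the Slc2a family. Slc2a3 (GLUT3), a high-affinity carrier of neurons, platelets and leukocytes, stood at 1.05 on the NYT array, against 15.8 on the control array, a difference of -3.91. Only 1.34% of measured genes had a difference as low or lower. Its single probe lies at chr6:122678075-122678134 (minus strand, mm9). Slc2a1 (GLUT1), the widely expressed basal carrier, was instead at 6.21 on the NYT array, against 4.23 on the control array (difference 0.56). Relative to the median of all genes, Slc2a1 lay between 0.05 and 0.27 over the settings tried, and Slc2a3 between -4.41 and -4.19. Among 14 neutrophil markers all 14 were measured, 11 were at least 2-fold lower, and their summed intensity was 367 on the NYT array, against 862 on the control array. All 9 megakaryocyte and platelet markers were at least 2-fold lower, with sums of 35.6 on the NYT array and 320 on the control array. The part of these cells in the Slc2a3 difference was not tested. In such bulk samples fewer cells of a type and less RNA per cell cannot be told apart.

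Hexokinases trap glucose as glucose 6-phosphate. Hk2, the isoform most responsive to hypoxia and growth signals, was at 2.58 on the NYT array, against 1.92 on the control array (difference 0.42). Hk3, an isoform found mainly in myeloid cells, was at 21.9 on the NYT array, against 13.1 on the control array (difference 0.74). As scaled they stood at percentiles 58.9 and 78.4 of all measured differences, and relative to the median of all genes Hk2 lay between -0.08 and 0.18 over the settings tried and Hk3 between 0.22 and 0.46. Hk1, the general isoform, has 3 probes that do not share a sign. The brightest stood at 127 on the NYT array, against 72.0 on the control array (difference 0.82), but the file headers place it on chromosome 5 (start 22118404, mm9), whereas the gene lies on chromosome 10. The other Hk1 probes, both listed on chromosome 10, were at 10.6 and 0.599 on the NYT array, against 13.7 and 0.734 on the control array (differences -0.37 and -0.29). Hk1 is the only member whose measured probes disagreed in sign, so no direction is given for it.

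Gpi1, which makes fructose 6-phosphate, was at 61.7 on the NYT array, against 67.8 on the control array, and its 3 probes, whose listed positions overlap, lay between -0.18 and -0.10. The phosphofructokinases Pfkl, Pfkm and Pfkp, which commit sugar to glycolysis, differed by 0.37, -0.09 and 0.34. Pfkm was printed 10 times, at 0.858 on the NYT array and 0.914 on the control array, with spot SDs of 0.073 and 0.036 on the log2 scale. These steps all lay inside the middle 50% of measured genes.

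Pfkfb3 and Pfkfb4 make and degrade fructose 2,6-bisphosphate, which switches phosphofructokinase on, and both are hypoxia targets. Pfkfb3 was at 5.21 on the NYT array, against 4.87 on the control array (difference 0.10), with 0.82 by a dimmer second probe. Pfkfb4 was at 2.55 on the NYT array, against 6.91 on the control array (difference -1.44), by a probe at chr9:108934652-108934711 (plus strand, mm9). On both arrays its second probe was too near background to be used. The Pfkfb isoforms therefore stood at percentiles 40.1 and 7.61 of all measured differences.

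The 4 members at least 2-fold higher act between the aldolase and the phosphoglycerate mutase steps, a stretch that also holds Aldoa and Gapdh, which were under 2-fold. Aldoc, an aldolase isoform best known from brain, was at 8.68 on the NYT array, against 3.34 on the control array (difference 1.38, probe at chr11:78140198-78140257, plus strand, mm9). Tpi1, which interconverts the triose phosphates, was at 51.8 on the NYT array, against 21.8 on the control array, and its 2 probes gave 1.25 and 1.16. Pgk1, which makes the first ATP of the payoff phase, was at 76.1 on the NYT array, against 30.3 on the control array (difference 1.33). Pgam1, which shifts the phosphate of 3-phosphoglycerate, was at 110 on the NYT array, against 42.4 on the control array (difference 1.37, probe at chr19:41992898-41992957, plus strand, mm9). These differences lay at percentiles 93.9 to 95.5 of all measured genes. The brighter Tpi1 probe lies at chr6:124760947-124761006 (minus strand, mm9). The single Pgk1 probe is listed on chromosome 3 (start 57906830, mm9), whereas the gene lies on chromosome X, so its signal may include a copy elsewhere and the Pgk1 value is uncertain.

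The call of 2-fold for these enzymes depended on how the arrays were scaled. Under quantile normalization, Aldoc stood at 1.21, while Tpi1, Pgk1 and Pgam1 stood at 0.84, 0.86 and 0.86. Without any scaling, Aldoc, Tpi1, Pgk1 and Pgam1 stood at 0.36, 0.23, 0.31 and 0.35, while the median of all genes was -0.73 and every other member lay below 0. The differences of these 4 were above 0 under each setting tried that gave them a value, whereas the sign of the other members higher as scaled is tied to the scaling. Bright genes as a whole were shifted upward as scaled: among the 1700 genes in the brightest 10%, the median difference was 0.56 and 13.5% were at least 2-fold higher. Of the 22 glycolytic members 11 fell in that brightest 10%, and Tpi1, Pgk1 and Pgam1 were 0.68, 0.76 and 0.81 above its median.

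Aldoa, the main aldolase, was at 318 on the NYT array, against 167 on the control array (difference 0.93). Gapdh, which passes electrons to NAD+ and so forms NADH, was at 269 on the NYT array, against 154 on the control array. This brightest probe is listed on chromosome 7 while the gene lies on chromosome 6, and the brightest probe on chromosome 6 stood at 135 on the NYT array, against 83.8 on the control array (difference 0.69). The 8 Gapdh probes all lay between 0.52 and 0.81, and 3 of them are listed on other chromosomes. Relative to the median of all genes, Aldoa lay between -0.06 and 0.64 over the settings tried and Gapdh between -0.18 and 0.52. Eno1, which makes phosphoenolpyruvate, was at 70.1 on the NYT array, against 55.8 on the control array (difference 0.33), by a single probe listed on chromosome 2 while the gene lies on chromosome 4. Pkm, which makes pyruvate, was at 41.3 on the NYT array and 41.1 on the control array (difference 0.01). Gapdh, Pgam1, Ldha and other glycolytic genes have many near-identical processed copies in the mouse genome, so cross-hybridisation could contribute to their signal and was not tested.

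Ldha, which makes lactate, was at 165 on the NYT array, against 96.0 on the control array, and its 3 probes gave differences between 0.77 and 0.98. Ldhb, whose enzyme favours the reverse reaction, was at 3.76 on the NYT array and 3.65 on the control array (difference 0.04). Slc16a3 (MCT4), the hypoxia-inducible lactate exporter, was at 15.9 on the NYT array and 17.2 on the control array, and its 2 overlapping probes gave -0.11 and -0.24. Relative to the median of all genes, Ldha stood at 0.50 as scaled but between 0.01 and 0.56 over the settings tried, and Slc16a3 between -0.63 and -0.39.

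**Figure D2:**
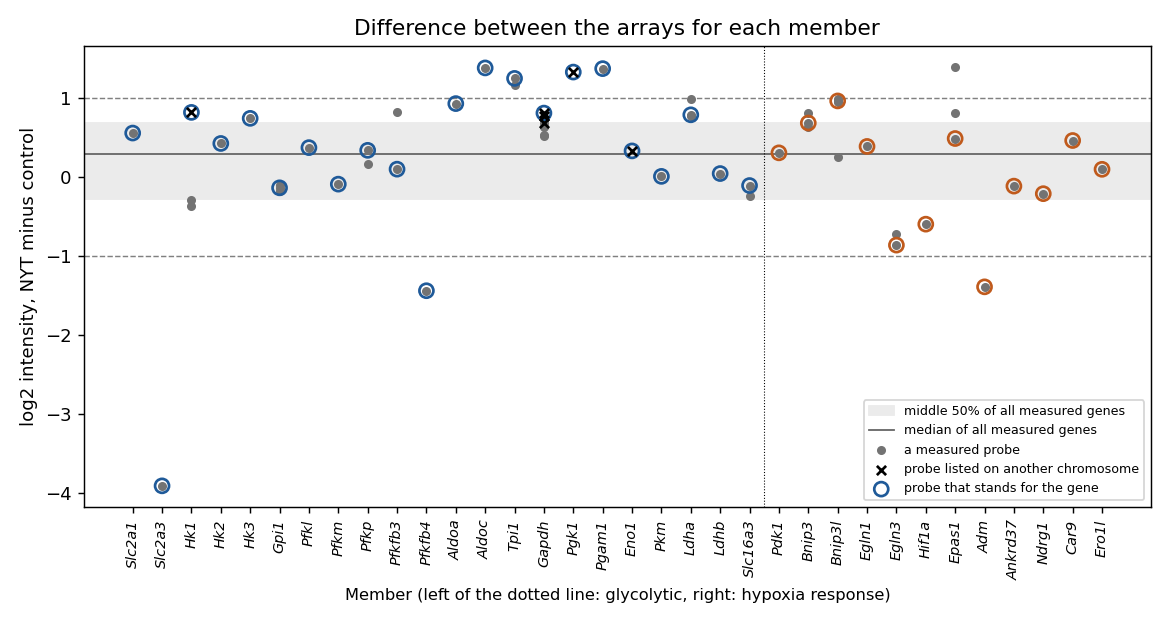
Difference in log2 intensity, NYT minus control (vertical axis), for the 34 members in pathway order, with large circles for the probe that stands for the gene, grey dots for each measured probe and crosses for probes listed on another chromosome than the gene. The grey band spans the middle 50% of all 16996 measured genes (-0.28 to 0.68), the solid line is their median (0.29), and dashed lines mark 2-fold.

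The sensors and regulators of the hypoxia response differed less than the ends of the glycolytic list. Hif1a, the main oxygen-regulated subunit, was at 1.22 on the NYT array, against 1.85 on the control array (difference -0.60, percentile 16.6). A second, dim Hif1a probe was well above background on the control array only. Epas1 (HIF-2 alpha) was at 3.42 on the NYT array, against 2.44 on the control array (difference 0.49), and its 2 dimmer probes gave 0.81 and 1.39. Relative to the median of all genes, Hif1a lay between -1.10 and -0.82 over the settings tried, and Epas1 between -0.02 and 0.61, so a direction holds for Hif1a only. The transcript is only part of their control, since both proteins are set mainly by degradation. Egln1, the main oxygen sensor, was at 0.194 on the NYT array, against 0.148 on the control array (difference 0.39). Egln3, a sensor that is itself a strong hypoxia target, was at 0.649 on the NYT array, against 1.18 on the control array, and its 2 probes gave -0.86 and -0.73.

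Targets linked to mitochondria were above the middle gene or at it. Bnip3 and Bnip3l, receptors that mark mitochondria for autophagy, differed by 0.68 and 0.96. Bnip3l was at 26.1 on the NYT array, against 13.4 on the control array, and 3 of its 4 probes lay between 0.94 and 0.98 while the fourth gave 0.26. All 3 probes of Bnip3 lay between 0.63 and 0.81. Pdk1, a kinase that switches pyruvate dehydrogenase off, was at 0.744 on the NYT array, against 0.602 on the control array (difference 0.31), the value of the middle gene.

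The other hypoxia targets showed no shared direction. Adm, the vasodilator adrenomedullin, was at 0.0530 on the NYT array, against 0.139 on the control array (difference -1.39, probe at chr7:117773088-117773147, plus strand, mm9). Adm was the dimmest member, and with normexp background correction its difference was -0.46, so the 2-fold call did not hold there. Ndrg1, a stress-induced protein widely used as a hypoxia marker, was at 5.30 on the NYT array and 6.14 on the control array (difference -0.21). Ankrd37 differed by -0.12, and Ero1l, an oxidase of protein folding in the endoplasmic reticulum, by 0.10. Car9, a carbonic anhydrase regarded as a near-specific HIF-1 target, was at 1.31 on the NYT array, against 0.955 on the control array (difference 0.46). Of these 12 hypoxia response members 6 lay above the middle gene and 6 below it.

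Set against each other, the glycolytic members had a median difference of 0.40 (range -3.91 to 1.38, 4 higher and 2 lower by 2-fold) and the hypoxia response members 0.20 (range -1.39 to 0.96, none higher and 1 lower). These counts are 18.2% higher and 9.09% lower of the glycolytic members and 8.33% lower of the hypoxia response members, against 11.2% higher and 11.0% lower of all measured genes, and with so few genes no difference between the lists is read from them. The median over all genes, 0.29, lies between these. Of the glycolytic members 14 of 22 (63.6%) lay above it, and of the hypoxia response members 6 of 12 (50%). The glycolytic count takes Hk1 by its probe listed on chromosome 5. Against the median of all genes of each setting, it was 11 of 22 with quantile normalization. With only probes listed on the gene's own chromosome it was 11 of 20. The gap of 0.20 between the medians turned to -0.084 with quantile normalization and -0.083 with the authors' value table, so neither list can be placed above the other. Relative to genes of similar brightness, the medians were 0.16 and 0.09.

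**Figure D3:**
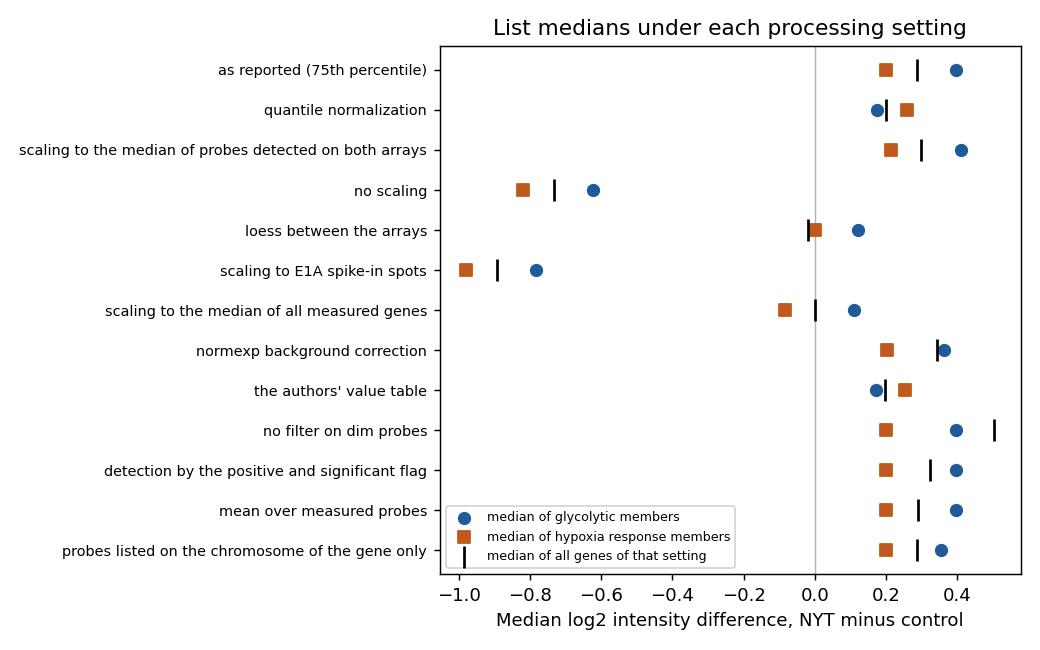
Median log2 difference, NYT minus control, of the 22 glycolytic members (circles) and the 12 hypoxia response members (squares) under each processing setting, with vertical ticks for the median of all genes of that setting. The list medians are 0.40 and 0.20 as reported and -0.62 and -0.82 without scaling, where the median of all genes is -0.73.

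Other isoforms of the same steps had a median of 0.21 over 16 measured genes of 25, with 4 higher and 1 lower by 2-fold. These counts are 25% and 6.25%, against 11.2% and 11.0% of all measured genes, and with so few genes no difference is read from them. Eno2, the enolase of neurons, was at 1.63 on the NYT array, against 0.189 on the control array, 8.59-fold higher by 1 measured probe. The Eno1 difference, 0.33, was far smaller, but its single probe is listed on another chromosome than the gene, so that comparison is uncertain. Ldhd, which acts on D-lactate, Pgam2, the muscle mutase, and Slc2a9, a urate carrier, were higher by 1.82, 1.31 and 1.30. Adpgk, an ADP-dependent glucokinase, differed by -1.94 by its brighter probe and -0.90 by the other. The testis isoforms Ldhc and Pgk2 were at least 7.02-fold and 3.23-fold lower on the NYT array, and Slc2a4 (GLUT4) at least 3.34-fold higher, each well above background on 1 array only. These 3 were dim, with bright-side levels between 0.0590 and 0.185.

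On the way from pyruvate to acetyl-CoA, 12 of 13 genes were measured, with a median of 0.53. By 2-fold, 2 were higher (16.7%) and 1 lower (8.33%), against 11.2% and 11.0% of all measured genes. Pdp1, the phosphatase that switches pyruvate dehydrogenase on, was at 3.09 on the NYT array, against 1.02 on the control array (difference 1.60), and its 3 probes lay between 1.41 and 1.63. Pdk3, an opposing kinase, was at 0.585 on the NYT array, against 1.24 on the control array (difference -1.08), and Pdk4 was at least 2.05-fold lower. Pdhx, a structural subunit of the complex, and the pyruvate carrier Mpc1 differed by 1.02 and 0.97. The kinases Pdk1, a member, and Pdk2 stood at 0.31 and -0.13.

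Of 11 pentose phosphate genes all were measured, with a median of 0.14. By 2-fold, 1 was higher (9.09%) and none lower, against 11.2% and 11.0% of all measured genes. Tigar, which lowers fructose 2,6-bisphosphate, was at 2.43 on the NYT array, against 0.752 on the control array (difference 1.69, with 1.57 by its other probe). Pgls, Rpe and Pgd, enzymes of this pathway, differed by 0.98, 0.61 and 0.53. Among glycogen and gluconeogenesis genes, 14 of 19 were measured, with a median of 0.30, 2 higher (14.3%) and 1 lower (7.14%). Gyg, glycogenin, the primer of glycogen, and Ugp2, which makes UDP-glucose, differed by 1.68 and 1.37, Pgm1 by 0.93, and Pygl, a glycogen phosphorylase, by -1.16. Fbp1 was at least 2.84-fold lower and Pck1 at least 2.28-fold higher, both enzymes of gluconeogenesis and both near background.

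Regulators of the HIF pathway had a median of 0.31 over 17 measured genes of 18, and none reached 2-fold. Their largest differences were those of Hif3a (0.93), Rbx1 (0.88), Hsp90aa1 (0.86) and Tceb2 (0.77). Hif3a was dim, at 0.0964 on the NYT array and 0.0506 on the control array by 1 measured probe. The 3 measured probes of Rbx1 lay between 0.13 and 0.95. Vhl, the ubiquitin ligase subunit that recognises hydroxylated HIF, stood at 0.31. A wider list of 44 hypoxia targets had 38 measured, with a median of 0.15. Of these, 6 (15.8%) were higher and 5 (13.2%) lower, near the shares over all measured genes (11.2% and 11.0%). These shares leave out genes well above background on 1 array only. On this list 4 such genes were seen on the control array and none on the NYT array. Over all genes the numbers were 1855 and 553. Bhlhe41, a clock repressor, and P4ha2, a collagen prolyl hydroxylase, were higher by 3.55 and 2.53. Vldlr, a lipoprotein receptor, was lower, at -2.84 on the same scale. Plod2 and Tmem45a were at least 2.87-fold and 3.55-fold lower. Vegfa, the best-known target, stood at 0.41, with 1.68 by its other probe.

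**Figure D4:**
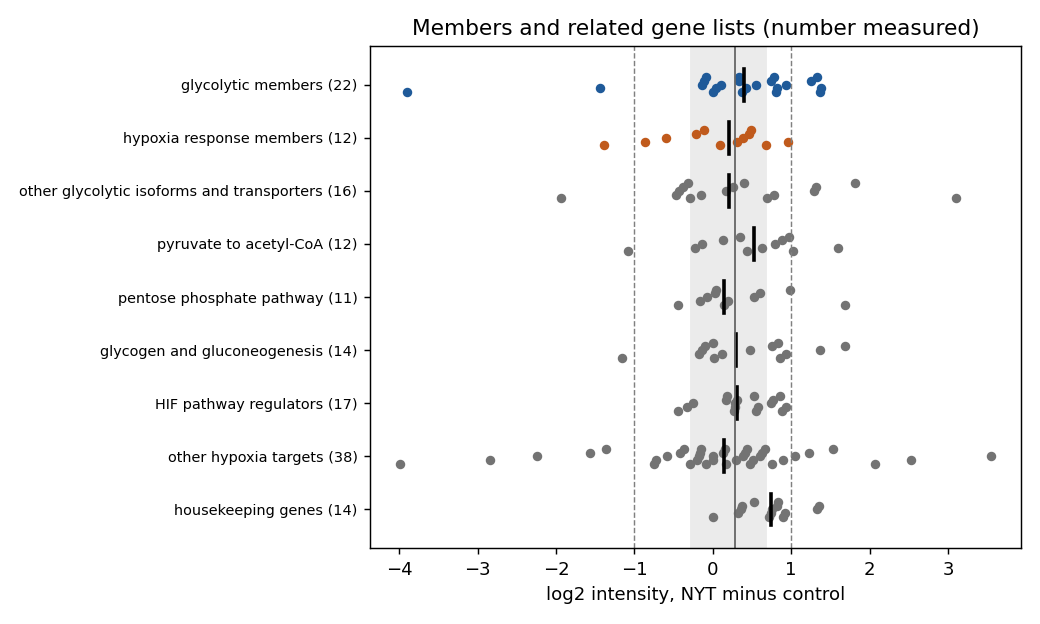
Difference in log2 intensity, NYT minus control (horizontal axis), for each measured gene (dots) of the 2 member lists and 7 related lists, with a black bar at each list's median, a grey band for the middle 50% of all measured genes and dashed lines at 2-fold. The medians of the glycolytic and hypoxia response members, 0.40 and 0.20, lie within the band, and that of housekeeping genes, 0.75, lies above it.

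Genes often used as references are informative beside these values. The 14 housekeeping genes, which include Pgk1, had a median of 0.75, and 13 of 14 lay above the median of all genes. Actb was at 503 on the NYT array, against 285 on the control array (difference 0.82), and Ppia at 289 on the NYT array, against 174 on the control array (difference 0.74). Ywhaz was the only other one past 2-fold, at 1.35, with 0.26 by its lowest probe, and Tubb5 stood at 0.90. Gapdh (0.81), Ldha (0.79) and Aldoa (0.93) were near the housekeeping median, the 4 members at least 2-fold higher were above every housekeeping gene except Pgk1 itself and Ywhaz, and Pkm (0.01), Gpi1 (-0.14) and Slc16a3 (-0.11) were below the median.

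Marker genes of other cells differed between the arrays by more than most members. Beside the neutrophil and megakaryocyte markers, 7 of 7 measured mast cell and basophil markers were at least 2-fold lower, with medians of -3.13, -4.32 and -5.18 in these 3 lists. T and NK cell, erythroid and fibroblast markers had medians of -2.24, -1.69 and -2.70, and B cell markers -0.39. In that order, 5 of 9, 6 of 9, 5 of 8 and 8 of 8 markers with a probe were measured and entered these medians. A further 4 T and NK cell and 3 fibroblast markers were well above background on the control array only. Of the measured erythroid markers, 1 was at least 2-fold higher and 3 were at least 2-fold lower. Macrophage markers went both ways (3 of 13 higher, 6 lower), with a median of -0.93 but a summed intensity of 900 on the NYT array, against 619 on the control array. The 3 higher ones, Gpnmb, Trem2 and Cd68, were the brightest of the list on the NYT array, at 336, 264 and 177, so the sum reflects mainly these. Whether the cell mixture has a part in the member differences was not tested.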

How the data were processed

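Per the file headers, the deposited intensity values are scanner output of Agilent Feature Extraction (version 10.7.1.1, though 9.5.1.1 per the submitters' processing notes), detrended within each array, with surrogates near background and no scaling between arrays. The authors also deposited a table of linear intensity values, used as an alternative. Both its columns had a median of 72.1, and 39073 of 39429 sorted values were equal within a relative tolerance of 1e-06, as after quantile normalization. Each column followed its own array in rank (Spearman 0.999996 for NYT and 0.999961 for control), which gives its direction. Its other steps were not stated.

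Outlier spots (165 on the NYT array, 258 on the control array) were removed, log2 values averaged per probe, and each array's 75th percentile subtracted. Among probes detected on both arrays, the brightest stood for its gene. Bounds set the bright array against the higher of the lowest detected signal and the probe's own value on the other. Names came from RefSeq (GRCm38.p6) by accession, symbol or synonym, and 8215 probes kept the file's name. Probe positions are on mm9. Groups came from the labelled treatment. The number of arrays limits the precision. Members and lists were chosen with earlier results of these data known. All members are named, with up to 4 measured genes of the largest difference per related list and bounds of at least 2-fold, plus Slc2a9, Pdk2, Vhl, Vegfa, Actb and Ppia, chosen after their values were seen. Some genes that the rule took are left out of the text. The counting step was tested on simulated data. Python 3.11.15, R 4.3.3 and limma 3.58.1 (normexp and loess) were used. Scaling, background correction, detection, probe choice and threshold were varied in 13 ways.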

Additional observations from a re-analysis of the deposited data

How the results depend on the processing

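No paired analysis was possible because a single array stood for each culture and nothing was tested, and leaving out an array was likewise impossible. For the changes listed here the cause was not tested, except that filters and thresholds change which genes enter. Of the 34 members, 4 were reported higher and 3 lower, but without scaling it was 0 and 11, with spike-in scaling 0 and 14, and at 3-fold 0 and 1. Of all 16996 measured genes, 211 and 6190 were higher and lower without scaling. With spike-in scaling it was 166 and 7485, and at 3-fold 507 and 1167, so the counts over all genes moved the same way. Members higher numbered 1 with quantile normalization, with loess and with the authors' value table, where 1868, 944 and 1863 of all 16996 measured genes were higher.

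The medians of glycolytic, hypoxia response and all members, 0.40, 0.20 and 0.35 as reported, were -0.62, -0.82 and -0.67 without scaling and -0.78, -0.98 and -0.83 with spike-in scaling. Scaled to the median of all measured genes, the hypoxia response median was -0.085. The glycolytic minus hypoxia response gap was -0.084 with quantile normalization, -0.0825 with the authors' value table and 0.12 with loess. The median of all measured genes was -0.73 without scaling, -0.89 with spike-in scaling and -0.019 with loess.

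Over all genes, 1908 higher and 1868 lower were reported. Unscaled arrays gave 211 and 6190, spike-in scaling 166 and 7485, dropping the filter on dim probes 4755 and 3414, and the 3-fold threshold 507 and 1167. Those higher numbered 944 with loess, 939 when scaled to the median of all genes and 3577 with the other detection flag.

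Slc2a3 and Pfkfb4 stayed at least 2-fold lower under each setting tried that gave a value for a single gene, the nearest to 0 being -3.89 and -1.43. Using only probes listed on the gene's own chromosome, a setting chosen after seeing the data, left out Pgk1 and Eno1 and put Hk1 at -0.37. It gave 3 of 32 members higher and 3 lower, beside 1907 higher and 1868 lower of all 16994 genes. Low signal limits Adm most.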
